A study of Danio rerio with 4 samples.

Results

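Clusters of Tbx6myc peaks, stretches of the zebrafish genome in which 3 or more binding peaks of myc-tagged Tbx6 lie close together, are described here. The peaks come from chromatin immunoprecipitation followed by sequencing (ChIP-seq) with an anti-myc antibody. A peak was a candidate where it lay on a numbered chromosome and shared no base with a peak of the wild-type control. The members were selected on the called positions of the peaks alone. Candidates were chained where the gap between the edge of a peak and the next one was 10000 bp or less, and every chain of 3 or more peaks was taken as a cluster. This gave 98 clusters with 328 peaks, which made up 8.68% of the 3778 candidates and 8.21% of all 3997 Tbx6myc peaks. The other candidates were 698 peaks in 349 loci of 2 peaks and 2752 single peaks.

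The Tbx6myc peaks were from whole embryos of the strain Tg(hsp70l:tbx6Myc)v8, in which a heat-shock promoter drives myc-tagged Tbx6, and the control peaks from embryos labelled Weslyan University wild type, which have no tagged protein. Both kinds of embryo were raised at 28.5 °C, were heat-shocked at 37 °C for 1 h (stage 10S in the labels), were fixed in 1.85% formaldehyde and were precipitated with the same antibody. The Tbx6myc list merges 2 ChIP libraries, the wild-type list of 398 peaks stands for 1, and without replicate lists no spread between replicates can be given. The promoter is not limited to the tissue that makes Tbx6, so a peak of the induced protein need not be a site of the embryo's own Tbx6. The depth of the libraries is unknown, since the lists hold no read counts. Each peak has a score, equal to the negative log10 of its p-value times 10. The authors averaged it for the Tbx6myc list, and it ranks peaks within a list.

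Tbx6 is a transcription factor of the T-box family and acts in the presomitic mesoderm, the tissue at the tail end of the embryo that is cut into somites, which later form vertebrae and skeletal muscle. T-box proteins bind a short DNA element through the conserved domain that gives the family its name. Genes that steer development often have several enhancers, short stretches of regulatory DNA that lie before, within or beyond the gene, so that 1 gene's surroundings can hold many binding sites of the same factor. The clusters are given by position on the Zv9 assembly; genes and sequences of that assembly were not used here, and no cluster is assigned to a gene.

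Most clusters held 3 peaks. Of the 98, 75 held 3 peaks, 16 held 4, 3 held 5 and 4 held 6, and none held more. From the first base of the first peak to the last base of the last, a cluster spanned 11.1 kb at the median, with quartiles of 7.71 and 14.5 kb and a range from 1.33 to 26.2 kb. The span was under 5 kb in 11 clusters and 20 kb or more in 7. Spans are bounded by the chaining distance and move with it: the median was 6.11 kb with a distance of 5 kb and 19.96 kb with 20 kb. Clusters of 3 peaks had a median span of 10.4 kb, those of 4 peaks 14.5 kb, those of 5 peaks 18.5 kb and those of 6 peaks 19.0 kb. The peaks themselves covered 16.5% of a cluster at the median, from 6.95% to 87.7%, so that in most clusters the called intervals were islands in a longer stretch without a call.

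The 4 clusters of 6 peaks lay on chromosomes 4, 7, 18 and 25. On chromosome 25, the cluster from 11386856 to 11401158 had scores of 222, 121, 514, 805, 240 and 226 in order of position. Its 2 highest peaks stood side by side in the middle, 2.49 kb apart, with the lower ones on both flanks. On chromosome 7, between 36197621 and 36219245, the scores were 160, 166, 174, 565, 203 and 318. Here a single peak, from 36211568 to 36212116, stood out, while the 3 peaks before it lay between 160 and 174. On chromosome 18, between 20000332 and 20016713, they were 523, 187, 270, 144, 108 and 271. The highest peak of that cluster was the first, and at 1305 bp it was also the widest of the 6.

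On chromosome 4, the cluster from 13429949 to 13454262 ran from a tight group of weak peaks to separate stronger ones. Its scores were 130, 127, 185, 192, 259 and 357, and the highest was the last. The first 3 peaks lay 465 and 651 bp apart, whereas the gaps to the later ones were 6397, 6225 and 7667 bp. A wild-type peak lay 68.1 kb from it, at 13361367 to 13361809, with a score of 101.2. The 6-peak cluster of chromosome 25 also had a wild-type peak within 100 kb, at a distance of 93.8 kb and with a score of 95.6.

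The 3 clusters of 5 peaks lay on chromosomes 18, 24 and 25. On chromosome 25, the cluster from 11088174 to 11106656 had scores of 202, 229, 584, 943 and 248. As in the 6-peak cluster of that chromosome, the 2 highest peaks were neighbours, here 2.57 kb apart, and the peaks at both ends were lower. These 2 clusters were 280 kb apart and no other candidate peak lay between them. On chromosome 18, the cluster from 35643551 to 35666946 had scores of 242, 98.97, 381, 430 and 626, with the highest peak last. On chromosome 24, between 39464280 and 39478959, they were 150, 164, 215, 394 and 171. There too the 2 highest peaks were neighbours with lower peaks at both ends, so this layout was not particular to chromosome 25. The 2 highest were also neighbours, at the end, in this cluster of chromosome 18 and in the 6-peak cluster of chromosome 4. In the 6-peak clusters of chromosomes 7 and 18 they were not. The cluster on chromosome 24 stood by itself, 705 kb from the nearest other candidate peak.

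**Figure D1:**
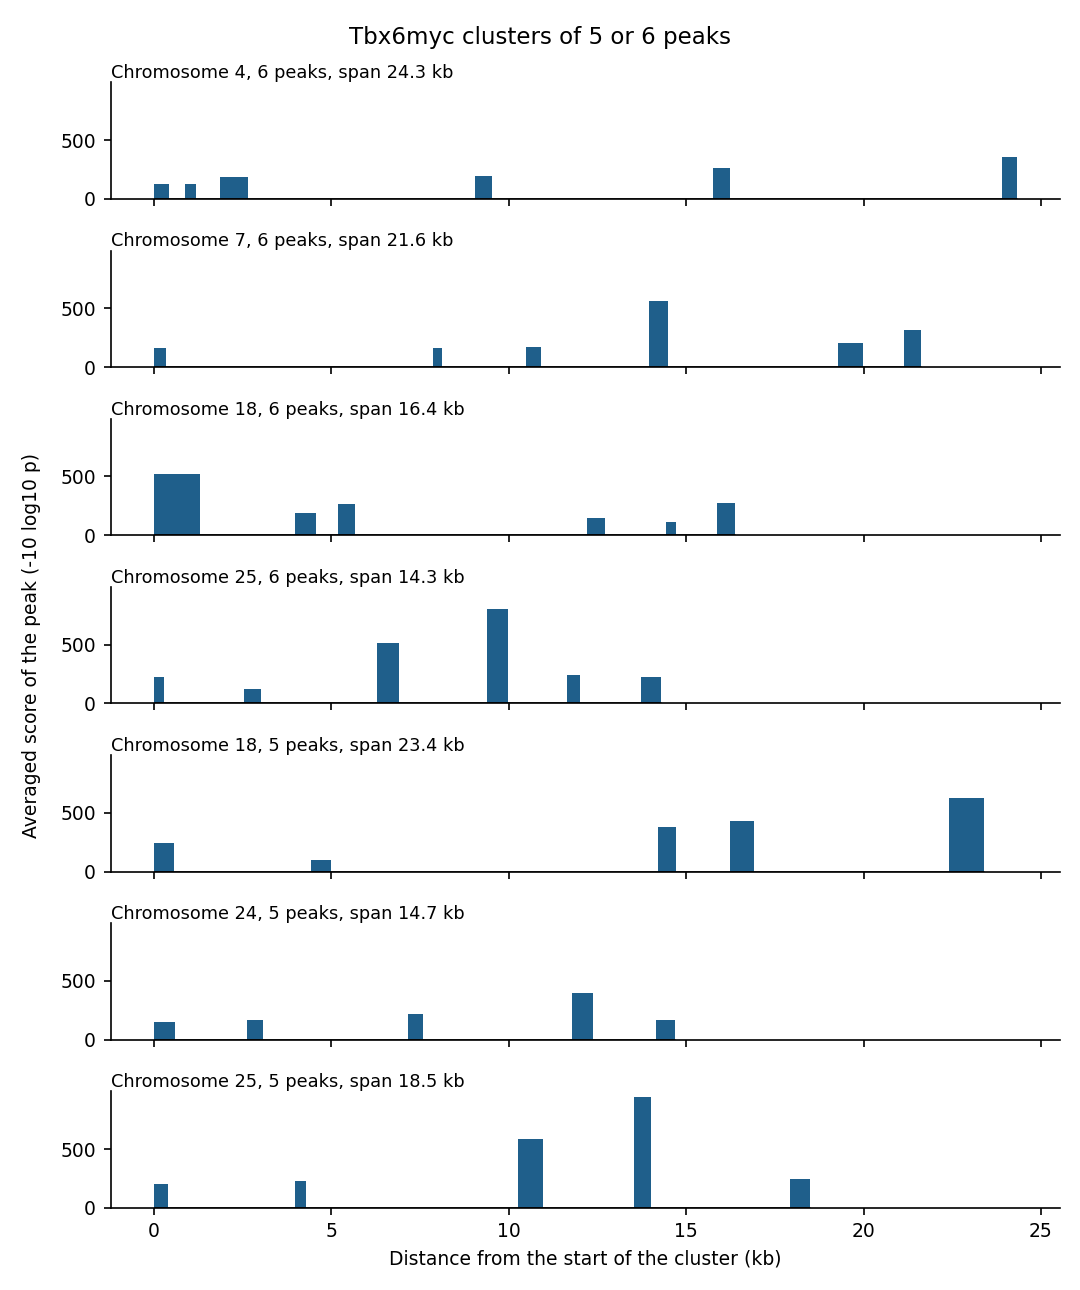
Positions and scores of the peaks in the 7 clusters of 5 or 6 peaks. The x axis is the distance from the start of the cluster in kb, each bar is 1 peak drawn to its width, the bar's height is its averaged score (minus 10 log10 p), and the black line is the baseline; the highest bar, 943, belongs to the 5-peak cluster of chromosome 25.

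Peaks in clusters carried higher scores than peaks in smaller loci. The median score was 244 in clusters (quartiles 157 and 369, 328 peaks), 205 in loci of 2 (149 and 316, 698 peaks), 182 for single peaks (139 and 264, 2752 peaks) and 189 over all 3778 candidates. A score of 500 or more was held by 46 cluster peaks, or 14.0%, by 9.03% of peaks in loci of 2 and by 4.76% of single peaks. Over all candidates the share was 6.35%. A score of 1000 or more was held by 5 cluster peaks (1.52%), by 7 peaks in loci of 2 (1.00%) and by 12 single peaks (0.436%), and by 0.635% of all candidates. These scores come from the same peak calls as the positions that define the clusters, so they are given as a description without a test.

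The low end of the list was present in clusters as well. Of the cluster peaks, 71 (21.6%) scored under 150, against 25.2% in loci of 2, 32.0% of single peaks and 29.9% of all candidates. The weakest peak of a cluster had a median score of 141, and in 55 of 98 clusters it was under 150. The lower peak of a locus of 2 had a median score of 158. The lowest of several scores is low by construction, the more so with more peaks, so these values do not show that clusters are rich in weak peaks. Scores reached down to 95.6 in clusters, close to the lowest value of all candidates, 93.7. All peaks were at or above the candidates' median score in 24 clusters, and no peak was in 5. The cluster with the lowest maximum lay at 21740937 to 21745547 of chromosome 23, with scores of 140, 95.6 and 116.

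**Figure D2:**
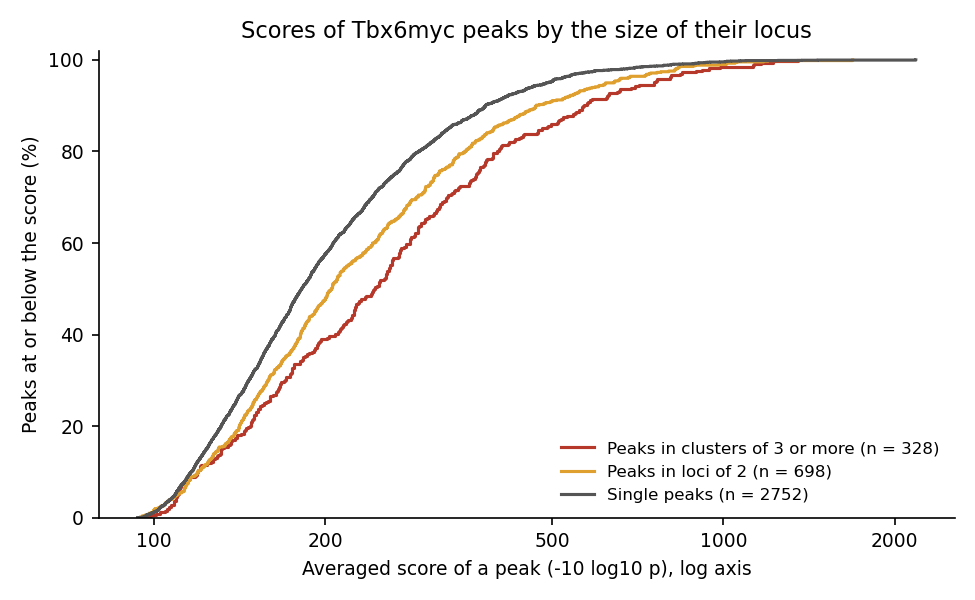
Cumulative distribution of averaged scores (minus 10 log10 p, log axis) for 328 peaks in clusters of 3 or more, 698 peaks in loci of 2 and 2752 single peaks; the y axis is the percentage of peaks at or below a score. The curve of the clusters lies to the right, with a median of 244, against 205 in loci of 2 and 182 for single peaks, while all 3 curves start near the same lowest score.

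The highest peaks included peaks of clusters, of loci of 2 and single ones. Of the 10 candidates with the highest scores, 3 were in clusters, 3 in loci of 2 and 4 were single. Of the top 100, 21 were in clusters, 27 in loci of 2 and 52 were single. Among all 3778 candidates, clusters held 8.68%, loci of 2 held 18.5% and 72.8% were single. The shares of clusters and of loci of 2 were thus both higher at the top of the list than over all candidates. The highest peak of all candidates, with a score of 2177, was a single peak.

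In 4 of the 5 clusters with the highest best score, a tall peak stood beside much weaker ones. Picking by the best score favours such a contrast, since the second score of the 98 clusters was 261 at the median. The cluster at 26009445 to 26023030 of chromosome 5 held the peak of rank 5 in the whole Tbx6myc list, with scores of 128, 1354 and 193. Its best score was 7.01 times the next, the largest such ratio of the 98 clusters. On chromosome 16, between 49305879 and 49318011, the scores were 404, 1224 and 119. On chromosome 24, between 13079735 and 13089886, they were 174, 225 and 1127. In both, the tall peak was at least 3.03 times the next.

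Of the other 2 of these clusters, 1 had a second strong peak. Chromosome 7 held a cluster from 16074838 to 16082560 with scores of 110, 1132, 271 and 656. Its tallest peak was narrow, at 306 bp, and began 319 bp beyond the weakest one. On chromosome 11, the cluster from 6693032 to 6699139 had scores of 262, 288 and 1164. It was the only cluster of chromosome 11, and its tall peak, at 6698521 to 6699139, was the last of the 3.

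Other clusters had no dominant peak. Over all 98, the best score was 1.46 times the next at the median (quartiles 1.19 and 2.01). In loci of 2, the higher score was 1.52 times the lower (1.18 and 2.28), so such a ratio is not shown to be particular to clusters. In loci of 2 the next score is also the lowest, so these ratios are not the same measure. The ratio of best to next was under 1.5 in 53 clusters and 2 or more in 25. From best to weakest it was 2.69 at the median and 10.6 at most. The scores of neighbours showed little relation. Across 230 adjacent pairs within clusters, which share the same libraries, Spearman's rho between their scores was 0.054, and across the 349 loci of 2 it was 0.070.

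**Figure D3:**
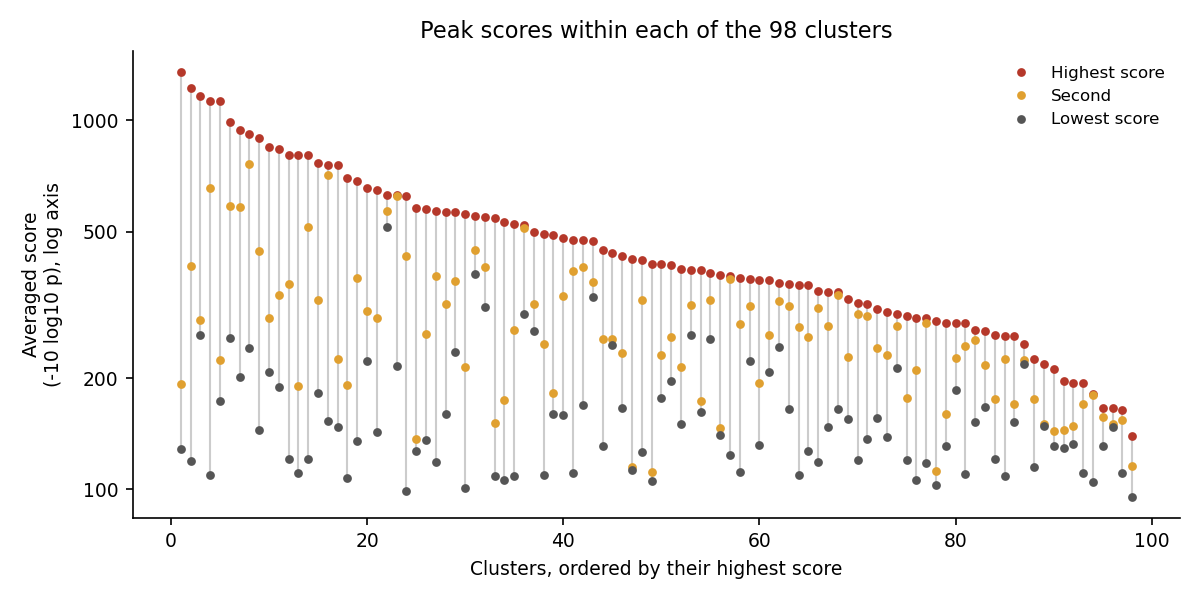
Highest, second and lowest averaged score (minus 10 log10 p, log axis) in each of the 98 clusters, ordered by the highest score from left to right, with a grey line from the lowest to the highest. Highest scores run from 1354 to 140, and lowest scores stay mostly between 100 and 200 along the whole order.

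The 5 clusters whose weakest peak scored highest were of this even kind. Picking by the weakest peak favours even scores, so this follows in part from the choice. On chromosome 17, the cluster from 28070775 to 28073282 had scores of 513, 629 and 568, and it was the only cluster with 3 peaks of 500 or more. On chromosome 5, between 21519939 and 21529552, the scores were 551, 446 and 383. On chromosome 6, between 20098448 and 20114041, they were 470, 333 and 366. The peaks of the cluster on chromosome 6 were evenly placed, with gaps of 6.85 and 6.93 kb, and the next candidate peak was 502 kb away.

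The last 2 of these clusters mixed close and separate peaks. On chromosome 4, between 680802 and 687581, the scores were 400, 312 and 549, and the last 2 peaks were 663 bp apart. On chromosome 13, between 29136079 and 29140504, they were 510, 519 and 299. The 2 stronger peaks on chromosome 13 were separated by only 86 bp, while the third lay 2.79 kb further on. In all, 2 peaks of 500 or more were found in 8 clusters, 1 in 27 clusters and none in 62.

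The best peak of a cluster was inside it in 47 of 98 clusters, or 48.0%. It was the first peak, by coordinate, in 31 clusters and the last in 20. In the 75 clusters of 3 peaks, where 1 of 3 places is inside, it was in the middle in 32, first in 26 and last in 17. In the 23 clusters of 4 or more, it was inside in 15, or 65.2%, while 55.3% of their peaks had an inside place. The lists carry no strand, so first and last are along the assembly and not along a gene.

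Best peaks were also wider. The best peak of a cluster was 602.5 bp wide at the median (quartiles 496 and 760.5 bp). The other 230 cluster peaks were 489 bp wide (388.5 and 582 bp). Width and score went together in clusters (Spearman's rho 0.47 across 328 peaks), in loci of 2 (0.50) and among single peaks (0.42). All cluster peaks had a median width of 513.5 bp, against 506 bp in loci of 2 and 474 bp for single peaks. Widths ran from 6 to 1457 bp in clusters, from 61 to 1537 bp in loci of 2 and from 58 to 2857 bp among single peaks. Shares at the extremes were counted for cluster peaks only: 9 of 328 (2.74%) were 1000 bp or wider and 5 (1.52%) were narrower than 100 bp. The narrowest, 6 bp at 13665406 to 13665411 of chromosome 4, followed the end of its neighbour by 14 bp.

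Gaps between adjacent peaks of a cluster covered the whole range that the rule allows. The median gap was 3.62 kb (quartiles 1.73 and 6.39 kb, 230 gaps), against 3.23 kb (1.888 and 6.399 kb) in the loci of 2. Gaps of 5000 bp or less made up 64.3% in clusters and 66.5% in loci of 2. Gaps of 1000 bp or less made up 16.1% in clusters and 15.5% in loci of 2. The widest gap inside a cluster was 9988 bp, on chromosome 20, followed by 9955 bp on chromosome 16. Just outside the limit, a gap of 10050 bp on chromosome 2 and a gap of 10155 bp on chromosome 1 each kept 3 peaks from forming a cluster. At a limit of 11000 bp, 11 more joints would each bring 2 neighbouring loci together into a group of 3 or more. Runs of single peaks linked by successive joints were not counted.

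**Figure D4:**
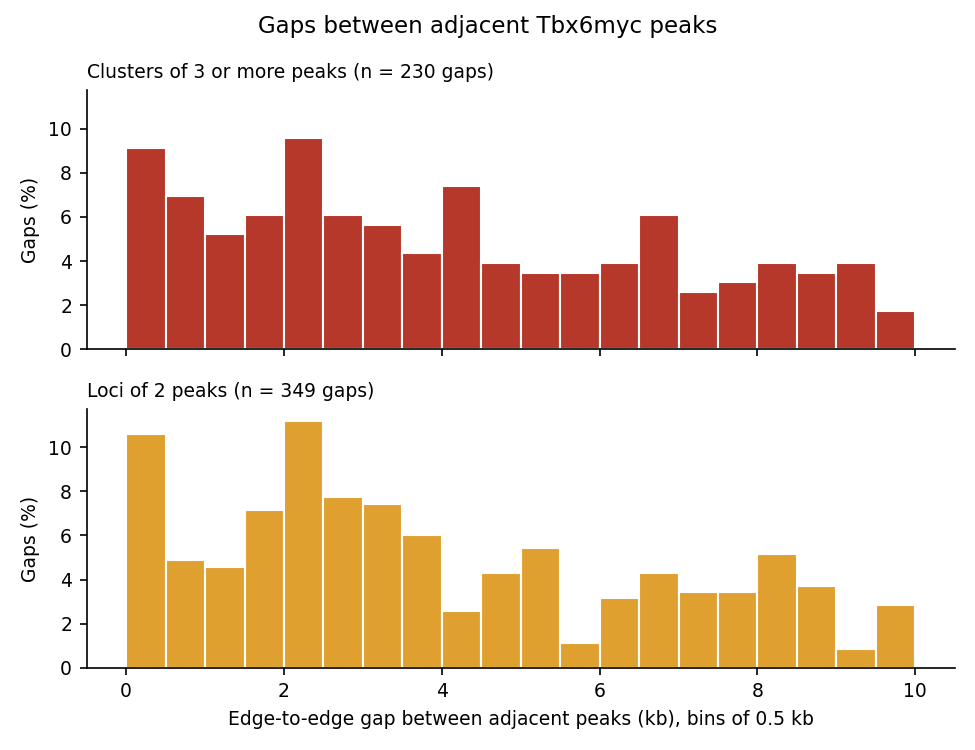
Edge-to-edge gaps between adjacent peaks in bins of 0.5 kb, as a percentage of the 230 gaps in clusters (upper panel) and of the 349 gaps in loci of 2 (lower panel). Both fill the range up to the 10 kb limit of the rule, with medians of 3.62 kb in clusters and 3.23 kb in loci of 2.

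Some peaks that were listed as distinct lay very close together. Gaps of 500 bp or less numbered 21 of 230 (9.13%) and occurred in 19 clusters. In loci of 2 they made up 10.9% of 349 gaps, so they were not particular to clusters. The shortest cluster of all, 1.33 kb on chromosome 2 from 27236986 to 27238313, consisted of peaks 99 and 65 bp apart with scores of 299, 277 and 213, and its peaks covered 87.7% of it. The second shortest was the 2.51 kb cluster on chromosome 17 described above, with gaps of 525 and 76 bp. The third, 3.74 kb on chromosome 21 from 36933621 to 36937357, had gaps of 1594 and 811 bp and scores of 109, 248 and 491. When peaks within 500 bp were first joined into 1, 85 clusters were left. Whether closely spaced intervals are separate sites or pieces of 1 enriched region was not tested.

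In the 3 longest clusters the peaks covered 12.3%, 12.0% and 7.46% of the span, from the longest on, against 16.5% at the median of all clusters. On chromosome 5, the cluster from 26105752 to 26131917 spanned 26.2 kb with scores of 292, 650, 143 and 211. Its gaps were 8.51, 9.62 and 4.82 kb, and it lay 82.7 kb from the cluster with the score of 1354. The 6-peak cluster of chromosome 4 came next with 24.3 kb, although its first 3 peaks lay only 465 and 651 bp apart. On chromosome 2, the cluster from 17576306 to 17600057 spanned 23.8 kb, with scores of 254, 120, 321 and 299 and gaps of 7.74, 6.87 and 7.37 kb. Across the 98 clusters, Spearman's rho between span and best score was 0.052.

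Further candidate peaks often lay beyond the ends of a cluster. Another candidate peak lay within 50 kb of 57 clusters (58.2%), against 51.0% of loci of 2 and 33.8% of single peaks. These distances come from the positions that sorted the peaks into clusters, loci of 2 and single peaks, so the order of the classes is a description and supports nothing further. The nearest other locus was 36.5 kb away at the median for clusters, 47.2 kb for loci of 2 and 96.8 kb for single peaks. The limit of 10 kb thus ended some clusters just short of further peaks. Another locus lay within 20 kb of 30 clusters (30.6%), against 25.2% of loci of 2 and 13.6% of single peaks. The other extreme was the cluster at 12175753 to 12191289 of chromosome 1, which had no other candidate peak within 744 kb.

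Some clusters neighboured each other. Another cluster lay within 100 kb of 12 of the 98. On chromosome 4, the clusters at 10565880 to 10574776 and at 10585325 to 10601749 were 10.5 kb apart. The first had scores of 153, 712 and 756, with the 2 high peaks only 30 bp apart, and the second had scores of 175, 531 and 106. On chromosome 18, the 5-peak cluster described above was followed after 11.1 kb by a cluster at 35678045 to 35684012 with scores of 846, 291 and 208. The highest peak of the first was its last and the highest of the second was its first, so that the 2 strongest peaks of this run faced each other.

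On chromosome 21, the short cluster described above was followed after 14.0 kb by a cluster of 4 peaks at 36951345 to 36961218, with scores of 658, 223, 304 and 288. Here too the highest peaks were the last of the first cluster and the first of the second. Also on chromosome 18, the 6-peak cluster was followed after 36.7 kb by a weaker one at 20053373 to 20065092 with scores of 287, 103 and 112. These neighbours were chosen after their values had been seen.

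All 25 numbered chromosomes held at least 1 cluster, but in unequal shares. Chromosome 5 held the most, 9 clusters with 30 of its 235 candidate peaks, followed by 8 on chromosome 13 and 7 each on chromosomes 16 and 20. Relative to its candidates, chromosome 25 had the highest share, 17 of 89 peaks or 19.1%, of which 11 were in the 2 large clusters described above. Chromosome 20 had 16.2% and chromosome 16 had 16.0%. Chromosomes 10, 11 and 14 held 1 cluster each. On chromosome 11 this was 3 of 170 candidates, or 1.76%, the lowest share. The 5 clusters of chromosome 4 all ended before 13.7 Mb. How the 147 candidates of chromosome 4 lie along it was not described, so this position is not shown to be particular to clusters. Peaks of a cluster are counted together here by definition, so 1 cluster moves a chromosome's share by at least 3 peaks, and no test was made.

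**Figure D5:**
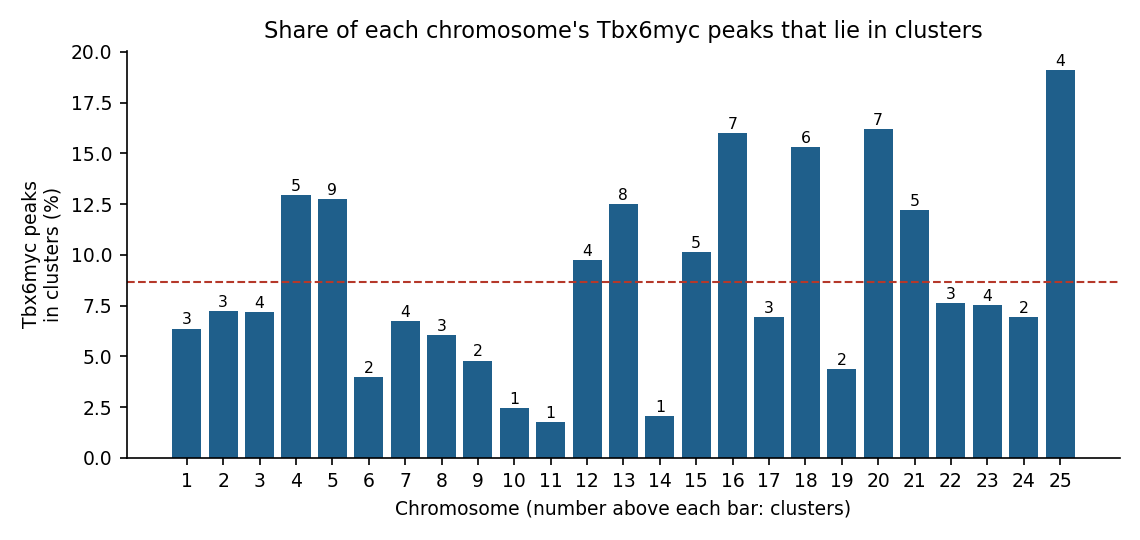
Percentage of each chromosome's candidate Tbx6myc peaks that lie in clusters of 3 or more (bars), with the number of clusters above each bar and the share over all chromosomes, 8.68%, as a dashed line. Shares range from 1.76% on chromosome 11 to 19.1% on chromosome 25.

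Clusters held 328 of the 3778 Tbx6myc candidates, or 8.68%. The wild-type list, chained in the same way, held 2 clusters on the numbered chromosomes, with 6 of its 240 peaks there, or 2.50%. The number of peaks differs greatly between the lists and more peaks make chains more frequent, so these shares are not compared. A Tbx6myc cluster at 36391464 to 36396538 of chromosome 8, with scores of 154, 164 and 111, began 0.472 kb beyond a wild-type cluster at 36382569 to 36390991, whose scores were 118, 146 and 97.1. This Tbx6myc cluster had the second lowest best score of the 98. Its highest-scoring peak was only 11 bp wide and lay 363 bp from the next, less than the 500 bp used above for joining. A further Tbx6myc peak of score 222, at 36382612 to 36383708, overlapped the first wild-type peak and had been set aside by the rule.

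The nearest wild-type peak was 1951 kb away from a cluster at the median, against 2693 kb from a locus of 2 and 2472 kb from a single peak. It was within 100 kb for 8 of 98 clusters (8.16%), against 3.15% of loci of 2 and 3.45% of single peaks. Besides the cluster on chromosome 8, it was within 10 kb in 2 cases. The cluster at 10777806 to 10785570 of chromosome 12, with a best score of 166, was 6.45 kb from a wild-type peak of score 114. The cluster at 25523553 to 25527787 of chromosome 16 had scores of 231, 302, 139 and 175 and was 6.16 kb from a wild-type peak of score 101.2. Those on chromosomes 8 and 12 were among the 5 in which no peak reached the candidates' median score. The part of the wild-type signal in these clusters was not tested. Without the 8 clusters near wild-type peaks, 90 clusters with 296 peaks remained and their median score was 249.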

How the data were processed

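ChIP-seq peak lists of heat-shocked zebrafish embryos, transgenic and wild type, were used. Bowtie and the Zv9 (danRer7) assembly are named in the submitters' processing notes. What peak caller and threshold were used, and which Bowtie version, is not given in the sources. The deposited score is 10 times a negative log10 p-value, per the file headers. It is an average in the transgenic list, which merges 2 ChIP and 2 input libraries per the labels. Per the file headers the lists also give start, stop and width in bp, with no other unit. Both ends count, and positions were taken as 1-based.

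Chaining, counts, medians, quartiles and Spearman correlations were computed with Python 3.11.15, pandas 2.3.3, numpy 2.4.6 and scipy 1.17.1, and the chaining was tested on simulated positions. Since peaks were chosen by the readout and each group had 1 list, without replicate lists, no test was made. The clusters and the descriptions were chosen with earlier results of these data known. Named clusters follow a rule: those of 5 or more peaks, the 5 with the highest best score, the 5 with the highest weakest peak, and the 3 longest and 3 shortest. Others were named after their values were seen. Planned descriptions of motifs and genes were not made, since no Zv9 sequence or annotation was used here. Alternatives covered the chaining distance, its measure, a stricter score, joined or identical peaks, wild-type overlaps, unplaced scaffolds and chromosome 4.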

Additional observations from a re-analysis of the deposited data

How the results depend on the processing

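No paired analysis was possible because each list stands for 1 sample and no test was made. The number of clusters (98), of their peaks (328) and their median score (244) were recomputed under 10 alternatives. So were their median span (11.1 kb) and the share with the best peak inside (48.0%). Of 50 values, 41 stayed within 1.5 times the count or within the 95% interval of the median (binomial ranks) or share (Wilson). The interval covers counting error only. It treats the peaks or clusters of 1 list as independent draws, although chained peaks are neighbours picked by position. With a chaining distance of 5 kb there were 43 clusters with 140 peaks and a median span of 6.11 kb. At 20 kb there were 177 clusters with 635 peaks and a median span of 19.96 kb. With scores of 150 or more only, there were 52 clusters with 171 peaks and a median score of 277. These shifts follow from the construction of the alternatives, which join or drop peaks. Under the others, counts ran from 85 clusters with close peaks joined to 107 with unplaced scaffolds included. Much of the agreement was also fixed by construction. Removing 1 of each identical pair could change nothing, since none of the 328 cluster peaks had such a partner. All 328 were kept with wild-type overlaps or scaffolds included, 309 without chromosome 4 and 296 without clusters near wild-type peaks. The 41 of 50 values are therefore no measure of robustness. Leaving out clusters near wild-type peaks was chosen after seeing the data. The depth is unknown, so how many weak peaks next to a strong one went uncalled cannot be said.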

Other observations

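The rule leaves out the unplaced scaffolds. There, the same chaining of Tbx6myc peaks that overlapped no wild-type peak gave 9 clusters with 31 of 175 peaks (17.7%), the largest of 5 peaks. Wild-type peaks on unplaced scaffolds, with none removed, formed 16 clusters with 69 of 158 peaks (43.7%), the largest of 8 peaks. Removal of overlapping peaks can break chains in the Tbx6myc list only, so these shares are not compared. None of the 328 cluster peaks on numbered chromosomes had a partner of identical width and score elsewhere in the list. Such partners were counted for cluster peaks only, so their absence is not shown to be particular to clusters. Of the 10 Tbx6myc peaks on numbered chromosomes that overlapped a wild-type peak, 1 lay within 10 kb of a cluster, the peak of score 222 on chromosome 8.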
